A study of Mus musculus with 12 samples.

Results

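Pecam1, Cdh5, Flt1, Kdr, Tek, Tie1, Eng, Esam, Vwf and Emcn are 10 genes whose transcripts mark the endothelium, the cell layer that lines blood vessels and forms the wall of muscle capillaries. They were followed in whole hind-limb muscle of mice with and without the gene for hexose-6-phosphate dehydrogenase (H6pd), an enzyme of the endoplasmic reticulum that makes NADPH inside that compartment. The members were all probe sets assigned to only 1 of these symbols, which gave 15 of the 45101 probe sets of the array. All 10 genes passed the filter on dim probe sets and were among the 13009 genes tested.

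The series holds 12 one-colour Affymetrix arrays, 3 for each of 4 groups. The groups were soleus of knockout (KO) mice, soleus of wild-type (WT) mice, and tibialis anterior (TA) of each genotype, all from 4-week-old mice. Per the labels, mice of this age had been weaned and showed no overt myopathy in histology, and soleus and TA were taken for their distinct fibre types and metabolism. The sources used here do not give the strain, the sex of the mice or the form of the H6pd allele. The replicates are called biological, but nothing says how the mice were drawn or whether soleus and TA came from the same mouse.

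In muscle, each fibre is served by several capillaries, and slow oxidative muscles are known for a denser capillary bed than fast glycolytic ones. Vascular endothelial growth factor (VEGF) acts on endothelial cells through Kdr, while Flt1 binds the same ligand and limits its action. Angiopoietins act through Tek, and Tie1 is its partner receptor. Pecam1, Cdh5 and Esam hold neighbouring endothelial cells together, Eng is a co-receptor for bone morphogenetic protein 9 (BMP9) and transforming growth factor beta, Vwf is the clotting protein stored in endothelial granules, and Emcn is a sialomucin of capillary and venous endothelium.

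Endothelial genes commonly carry binding sites for ETS transcription factors, whose core is GGAA, read as TTCC on the opposite strand. A RefSeq promoter table (build GRCm38.p6, 250 bases before to 50 after the start used in it) held 6 of the 10 members. That start is not always the annotated gene start. By the annotated spans, the windows of Flt1 and Kdr lie wholly inside the gene, and most of the Tek window does. The 3 stretches printed here show how such cores lie just before the annotated start of the receptor Tie1, the co-receptor Eng and the mucin Emcn, with GGAA and TTCC in capitals.
Tie1, chr4:118489850-118489949, minus strand: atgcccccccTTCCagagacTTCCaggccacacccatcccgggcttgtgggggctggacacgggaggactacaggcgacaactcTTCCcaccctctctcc
Eng, chr2:32646495-32646594, plus strand: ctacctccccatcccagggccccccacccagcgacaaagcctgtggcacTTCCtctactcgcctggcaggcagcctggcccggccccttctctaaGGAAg
Emcn, chr3:137340962-137341061, plus strand: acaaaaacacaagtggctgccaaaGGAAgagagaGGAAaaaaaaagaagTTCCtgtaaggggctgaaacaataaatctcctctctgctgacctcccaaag

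GGAA or TTCC was present in 6 of 6 members, with 9 matches in Tie1, 6 in Emcn, 5 in Kdr, 4 in Flt1, 4 in Eng and 2 in Tek over the 300 bases. It was also present in 96.0% of all 32851 windows in that table, so its presence does not set the members apart. The longer string CAGGAA, searched on both strands and containing the core, was found in 4 of 6 members and in 30.6% of all windows. These are matches of letters, not measured binding.

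The arrays were first set against their labels. Myh7, the slow myosin heavy chain, read 15.2 to 15.5 on the log2 scale on the 6 soleus arrays and 2.67 to 8.25 on the 6 TA arrays, so the muscles were separated as labelled. H6pd itself was measured by 1 probe set, and the sources do not say where it lies relative to the deleted part of the gene. Its log2 signal was 4.19, 4.41 and 6.10 in KO soleus against 5.57, 6.12 and 7.11 in WT soleus, and 6.89, 6.49 and 7.49 in KO TA against 6.37, 6.26 and 7.92 in WT TA. H6pd had a lower mean in KO than in WT soleus by 1.36 (log2, SE 0.62, adjusted p = 0.577), with overlapping arrays. It did not separate the genotypes in TA (log2 difference 0.11, SE 0.62, adjusted p = 0.966). KO and WT are therefore genotypes as labelled, and directions in both muscles rest on the labels. No 2 arrays shared more than 8 identical values, so none was a duplicate.

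Arrays numbered 3 stood apart in every group. The first principal component (46.6% of the variance) split soleus from TA. The second (18.6%) placed the 4 arrays numbered 3 between -33.9 and -23.8 and the other 8 between 5.82 and 21.9. The labels give no reason for this, and the member differences that changed sign or moved by over 1.5 times without these 4 arrays are also given without them.

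**Figure D1:**
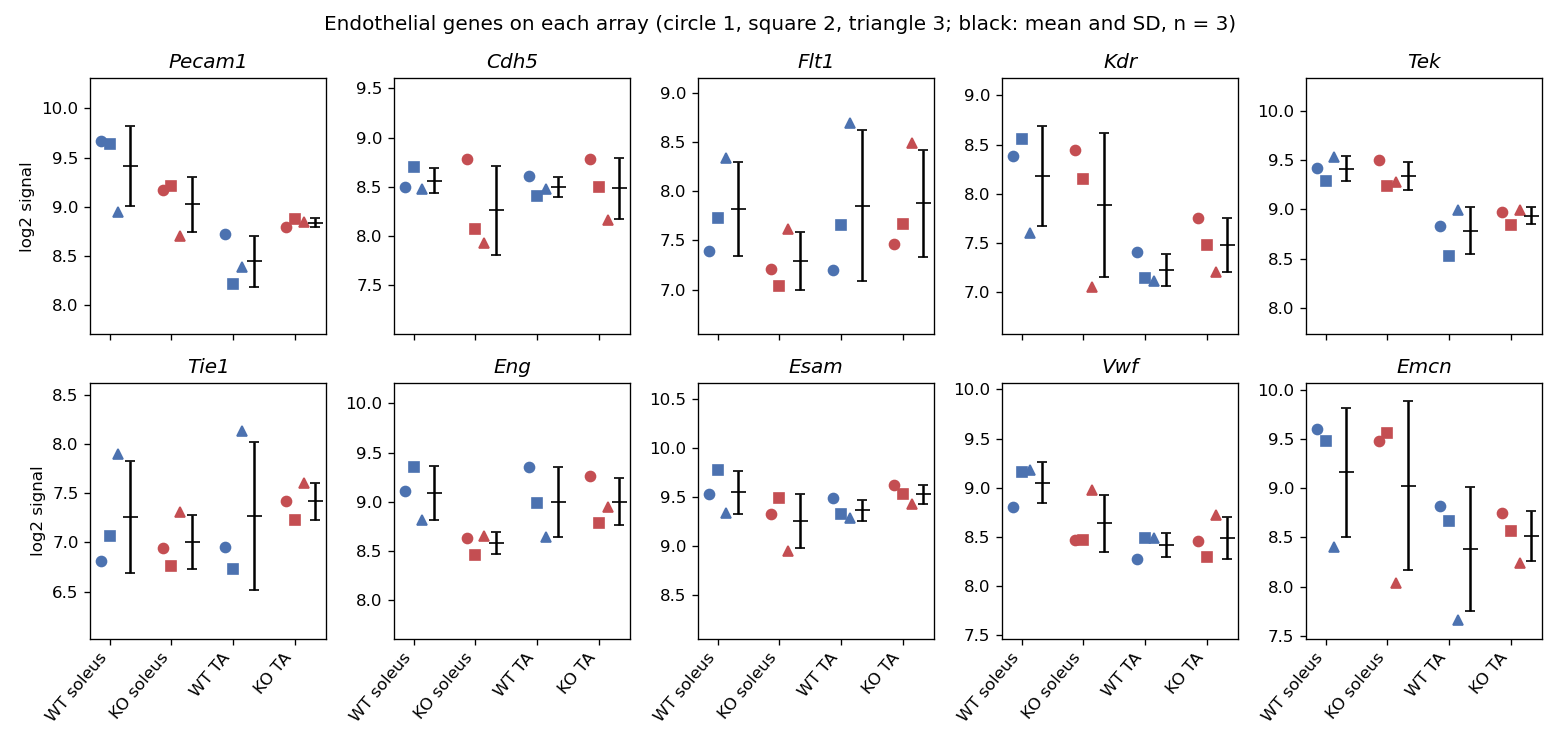
Log2 signal (vertical axis) of the tested probe set of each of the 10 endothelial markers on every array, by group, with arrays 1, 2 and 3 as circle, square and triangle and black marks for the mean and SD (n = 3). Flt1 and Tie1 lie highest, and Kdr, Esam and Emcn lowest, on array 3 of all 4 groups.

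All 10 endothelial markers were read as lower in KO than in WT soleus, and none passed the test. The log2 differences ran from -0.53 for Flt1 to -0.07 for Tek, with a median of -0.30 against 0.00 over all genes tested. Leaving out single arrays gave medians of -0.41 to -0.19. In this comparison 0.0307% of all genes were called at an adjusted p under 0.05, that is 4 genes, and 48.9% of all genes had a value below 0. An unadjusted p under 0.05 was reached by 2 members, Eng and Vwf, and by 8.76% of all genes. Muscle was taken whole, so fewer endothelial cells and less of these transcripts per endothelial cell cannot be told apart.

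Among the genes of cell junctions, Pecam1 read 9.17, 9.21 and 8.70 in KO soleus and 9.67, 9.63 and 8.95 in WT soleus. The 2 groups overlapped only through the array numbered 3 of WT soleus, which was below the other WT soleus arrays. Pecam1, an adhesion molecule also carried by platelets and leukocytes, differed by -0.39 (SE 0.22, adjusted p = 0.703, 95% interval -0.87 to 0.09). Esam, an adhesion molecule of endothelial tight junctions, read 9.33, 9.48 and 8.95 in KO soleus and 9.53, 9.77 and 9.34 in WT soleus, a difference of -0.29 (SE 0.15, adjusted p = 0.678). Cdh5, the cadherin of endothelial adherens junctions, read 8.78, 8.07 and 7.93 in KO soleus and 8.50, 8.71 and 8.48 in WT soleus. Its KO range covered the WT range from above and below, and the difference was -0.30 (SE 0.22, adjusted p = 0.829). The other Cdh5 probe set was above the filter level on 1 of 12 arrays and was not tested.

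Eng had the only non-overlapping soleus groups among the 10 members, against 12% of all genes with non-overlapping groups, 6.08% with KO lower. Its log2 signal was 8.63, 8.45 and 8.66 in KO soleus and 9.11, 9.36 and 8.81 in WT soleus. Every KO array was below every WT array, by a mean of 0.51 (SE 0.20, 95% interval of KO minus WT -0.96 to -0.06), and the adjusted p was 0.483. The other Eng probe set was also lower on every KO soleus array (-0.32, SE 0.17, adjusted p = 0.801 over all probe sets). Vwf read 8.47, 8.47 and 8.98 in KO soleus and 8.81, 9.16 and 9.19 in WT soleus, a difference of -0.41 (SE 0.18, adjusted p = 0.540, 95% interval -0.81 to -0.02). The KO array numbered 3 lay within the WT range of Vwf, and the other 2 lay below it. Without the arrays numbered 3, the difference was -0.69 for Eng (adjusted p = 0.575, range over 25 alternatives 0.0532 to 0.929) and -0.52 for Vwf (adjusted p = 0.592, range 0.0528 to 0.921).

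Among the receptors, Kdr, Flt1 and Tie1 varied more between arrays than Tek. Kdr read 8.44, 8.15 and 7.05 in KO soleus and 8.39, 8.55 and 7.60 in WT soleus, and differed by -0.30 (SE 0.36, adjusted p = 0.979). Flt1 read 7.21, 7.04 and 7.62 in KO soleus and 7.40, 7.73 and 8.34 in WT soleus, and differed by -0.53 (SE 0.41, adjusted p = 0.844). In both genotypes the array numbered 3 was the lowest for Kdr and the highest for Flt1, so these receptors of the same ligand moved in opposite directions on it. The other 3 Flt1 probe sets gave differences of -0.38, -0.14 and -0.29, none called, against 0.0109% of all probe sets called in this comparison. Tek varied little, at 9.51, 9.24 and 9.28 in KO soleus and 9.42, 9.29 and 9.54 in WT soleus, and its difference was -0.07 (SE 0.14, 95% interval -0.38 to 0.23). Its partner Tie1 read 6.94, 6.76 and 7.31 against 6.81, 7.07 and 7.90 and differed by -0.26 (SE 0.38). Tek and Tie1 both overlapped between genotypes, and each had an adjusted p of 0.999.

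Emcn read 9.48, 9.56 and 8.04 in KO soleus and 9.60, 9.48 and 8.41 in WT soleus. Arrays 1 and 2 of both genotypes lay together and the array numbered 3 differed from their mean by -1.48 in KO and -1.13 in WT. The difference was -0.13 (SE 0.47, adjusted p = 0.999, 95% interval -1.18 to 0.91), and without the arrays numbered 3 it was -0.02. Without those arrays Tek was 0.02 higher in KO soleus, and the differences of Cdh5, Kdr and Tie1 shrank to -0.18, -0.17 and -0.09. Over all tested probe sets of the members, 14 of 14 had a lower mean in KO soleus, 11 were higher and 3 lower in KO TA, and between KO muscles 6 were higher and 8 lower in soleus. Flt1 and Eng have more than 1 probe set here, read on the same arrays, so these are not separate readings.

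**Figure D2:**
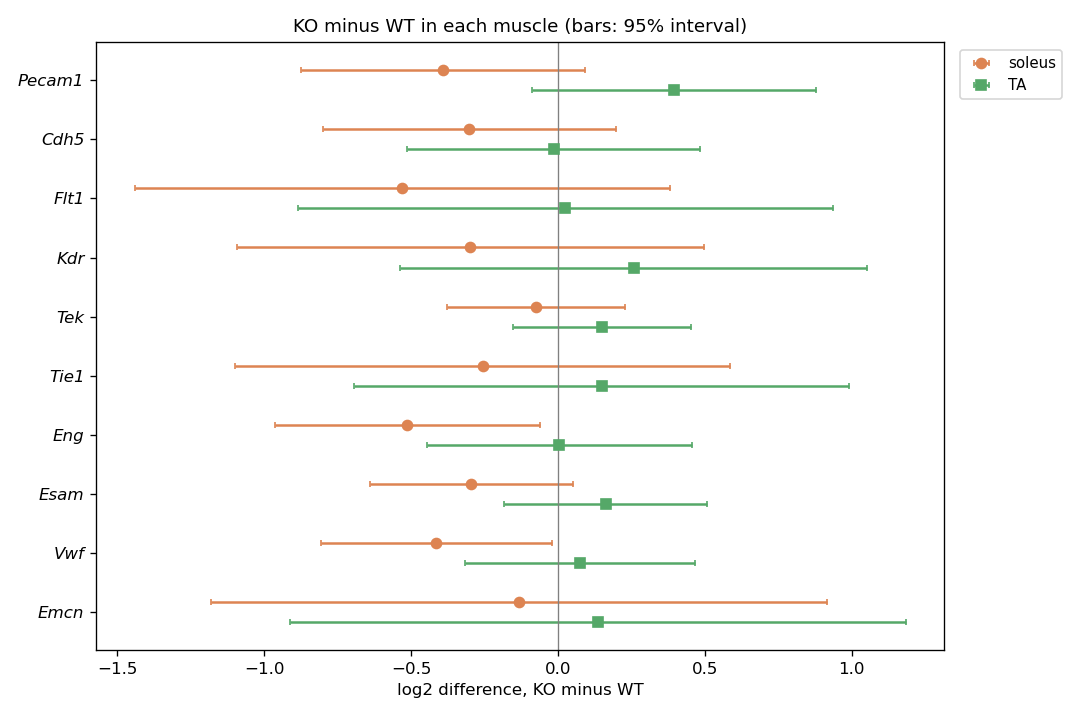
Log2 difference of KO minus WT (horizontal axis) for each endothelial marker in soleus (circles) and TA (squares), with bars for the unadjusted 95% interval from the fit over 12 arrays. In soleus all 10 points lie below 0 and the intervals of Eng and Vwf do not reach 0, while in TA 9 of 10 points lie above 0 and all intervals include it.

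In TA, 9 of the 10 markers were read as higher on the arrays labelled KO, and again none passed the test. The differences were from -0.01 for Cdh5 to 0.39 for Pecam1, with a median of 0.14 against -0.00 over all genes. Leaving out single arrays gave medians of 0.0654 to 0.18. In this comparison 2.83% of all genes were called (368 genes), 51.4% of all genes had a value below 0, and 0 of 10 members reached an unadjusted p under 0.05 against 17.1% of all genes. A fit blocked on replicate number called 913 genes in TA, and still 0 of 10 members. Same-numbered TA arrays deviated together, but so did arrays of KO soleus and WT TA, so pairing is not shown.

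Pecam1 was the member with the largest TA difference. It read 8.79, 8.87 and 8.85 on the arrays labelled KO TA and 8.73, 8.22 and 8.39 on those labelled WT TA. The groups did not overlap, as was the case with KO higher for 10.7% of all genes, and the difference of 0.39 (SE 0.22, 95% interval -0.09 to 0.88) had an adjusted p of 0.404. Esam read 9.62, 9.53 and 9.43 against 9.49, 9.32 and 9.28, a difference of 0.16 (SE 0.15, adjusted p = 0.664). Cdh5 read 8.79, 8.50 and 8.16 against 8.60, 8.41 and 8.48, so that the narrow WT range lay inside the KO range and the means differed by -0.01 (SE 0.22).

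For the VEGF receptors in TA, Kdr read 7.76, 7.48 and 7.21 on the KO arrays and 7.41, 7.14 and 7.12 on the WT ones, and differed by 0.26 (SE 0.36, adjusted p = 0.784). Flt1 read 7.47, 7.67 and 8.49 against 7.20, 7.66 and 8.70 and differed by 0.02 (SE 0.41). The 2 brightest other Flt1 probe sets gave 0.19 and 0.36 and the dim one gave -0.13. For the angiopoietin receptors, Tek read 8.98, 8.84 and 8.99 against 8.83, 8.52 and 9.0 and differed by 0.15 (SE 0.14, adjusted p = 0.641), and Tie1 read 7.42, 7.23 and 7.61 against 6.95, 6.73 and 8.13 and differed by 0.15 (SE 0.38, adjusted p = 0.90). For each of these receptors the genotypes overlapped.

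Eng in TA read 9.26, 8.79 and 8.95 against 9.35, 8.99 and 8.65, and its means were equal to within 0.01 (difference 0.00, SE 0.20, 95% interval -0.45 to 0.46). Vwf read 8.46, 8.30 and 8.72 against 8.27, 8.49 and 8.49, a difference of 0.08 (SE 0.18). Emcn read 8.74, 8.57 and 8.24 against 8.81, 8.66 and 7.66, a difference of 0.14 (SE 0.47). The tested probe sets of these 3 genes overlapped between genotypes. The other Eng probe set read 7.24, 7.17 and 7.21 against 7.33, 7.91 and 7.40, lower on every KO array (-0.34, SE 0.17, adjusted p = 0.413 over all probe sets), so the Eng probe sets disagree in TA. Without the arrays numbered 3 the TA difference was -0.15 for Eng, -0.08 for Emcn and -0.00 for Vwf, 0.14 for Cdh5, 0.14 for Flt1, 0.23 for Tek and 0.48 for Tie1, all with adjusted p-values of 0.293 or more.

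The question of whether the KO effect differed between the muscles was tested as a difference of differences, which uses all 12 arrays and so shares them with both comparisons above. The soleus effect was below the TA effect for 10 of 10 members, with a median of -0.47 against 0.01 over all genes, and 0 of 10 passed the test. Over all genes, 0.0384% were called (5 genes) and 48.5% had a value below 0. Pecam1 had the largest difference, -0.79 (SE 0.31, adjusted p = 0.817, 95% interval -1.47 to -0.10), and was the only member with an unadjusted p under 0.05, a level reached by 5.71% of all genes. It was followed by Kdr at -0.56 (SE 0.50), Flt1 at -0.55 (SE 0.58), Eng at -0.52 (SE 0.29), Vwf at -0.49 (SE 0.25) and Esam at -0.46 (SE 0.22). Tie1, Cdh5, Emcn and Tek were between -0.41 and -0.23. Single arrays moved several of these values by over 1.5 times: leaving out 1 array at a time gave -0.84 to -0.14 for Kdr, -0.97 to -0.23 for Flt1, -0.83 to -0.0861 for Tie1, -0.55 to -0.12 for Cdh5, -0.33 to -0.0945 for Tek, -0.69 to -0.34 for Eng and -0.65 to 0.23 for Emcn. Without the arrays numbered 3, Emcn was at 0.0657. The other Eng probe set gave 0.02. Effects of opposite sign in the 2 muscles were found for 39.5% of all genes.

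The WT muscles differed in part of these markers. Pecam1, Tek and Vwf rose in WT soleus relative to WT TA, 3 of 10 members against 4.44% of all genes called higher in soleus and 10.7% called in either direction (1392 genes). The split of these calls moved with the scaling, from 578 of 1392 higher in soleus to 920 of 1389 with arrays centred on their median. The median over the 10 members was 0.41 against -0.02 over all genes, and 8 members had the higher mean in soleus. Pecam1 was 1.96-fold higher (log2 0.97, SE 0.22, adjusted p = 0.0205), Tek 1.55-fold (log2 0.63, SE 0.14, adjusted p = 0.0177) and Vwf 1.55-fold (log2 0.63, SE 0.18, adjusted p = 0.0470). In each, every WT soleus array was above every WT TA array. Kdr was also non-overlapping, which made 4 members against 13.7% of all genes with soleus higher, and differed by 0.96 (SE 0.36, adjusted p = 0.119).

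The other members did not separate the WT muscles. Emcn differed by 0.78 (SE 0.47, adjusted p = 0.315), and its array numbered 3 differed from the mean of the others by -1.13 in soleus and -1.08 in TA. Esam differed by 0.18 (SE 0.15), Eng by 0.10 (SE 0.20), Cdh5 by 0.06 (SE 0.22), Tie1 by -0.01 (SE 0.38) and Flt1 by -0.03 (SE 0.41). So the junction cadherin and the BMP9 co-receptor read alike to within their intervals, -0.44 to 0.56 for Cdh5 and -0.36 to 0.55 for Eng, in muscles where Pecam1 and Tek differed.

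The calls between WT muscles depended on single arrays and on how the spread was estimated. Over 25 alternatives 703 to 2800 of all genes were called, and 703 to 1362 with single arrays left out. Fitted on the WT arrays alone, 0 members were called (adjusted p = 0.0834 for Pecam1, range over 25 alternatives 0.00270 to 0.0834; 0.0796 for Tek, range 0.00283 to 0.0796; 0.0710 for Vwf, range 0.00487 to 0.138). Without the array numbered 1 of WT soleus 0 members were called, and without number 2 of WT soleus, number 2 of WT TA or number 3 of WT TA only 1 was. With the replicate number as a block 5 were called, Kdr (adjusted p = 0.0239, range over 25 alternatives 0.0156 to 0.288) and Emcn (adjusted p = 0.0297, range 0.0148 to 0.631) joining Pecam1, Tek and Vwf, and 2369 of all genes were. Without the arrays numbered 3, Pecam1 (1.18), Kdr (1.18), Emcn (0.80) and Tek (0.68) were called and Vwf (0.60, adjusted p = 0.0708) was not. Of the members not called, Flt1 then differed by 0.13, Tie1 by 0.10, Cdh5 by 0.0962 and Eng by 0.0629.

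**Figure D3:**
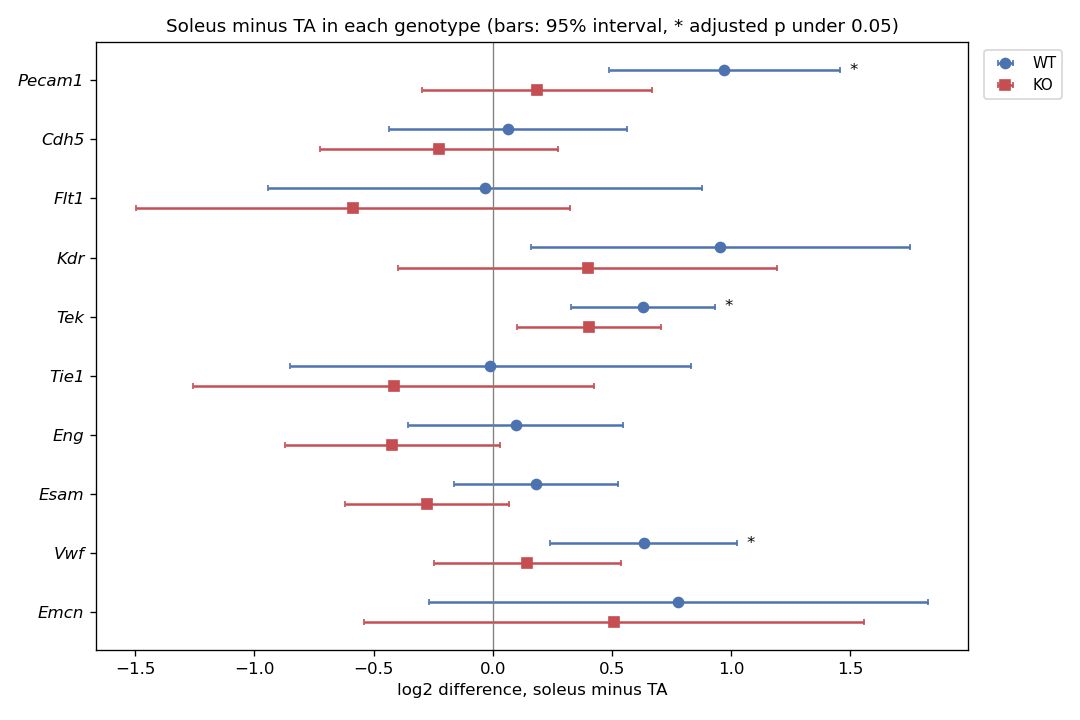
Log2 difference of soleus minus TA (horizontal axis) for each endothelial marker within WT and within KO, with bars for the unadjusted 95% interval. Pecam1, Tek and Vwf in WT are the 3 differences past the test, and in KO 5 of 10 markers lie below 0.

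In KO muscle 0 of 10 members passed the same comparison, with 8.96% of all genes called (1165 genes) and 1 member at an unadjusted p under 0.05 against 24% of all genes. The median was -0.04 against -0.02 over all genes, with 5 members higher and 5 lower in soleus. Tek, the 1 member with that unadjusted p, was higher in soleus on every array, as were 11.7% of all genes (log2 0.41, SE 0.14, adjusted p = 0.101). It was followed upwards by Emcn at 0.51 (SE 0.47), Kdr at 0.40 (SE 0.36), Pecam1 at 0.19 (SE 0.22) and Vwf at 0.14 (SE 0.18). Eng was lower in KO soleus on every array, as were 18.5% of all genes (-0.42, SE 0.20, adjusted p = 0.241), by its tested probe set only: the other Eng probe set was higher in KO soleus on every array (0.11, SE 0.17), and the mean of both gave -0.16 (adjusted p = 0.550, range over 25 alternatives 0.101 to 0.550). Flt1 (-0.59, SE 0.41), Tie1 (-0.42, SE 0.38), Esam (-0.27, SE 0.15) and Cdh5 (-0.22, SE 0.22) had the lower mean. With the replicate block, Tek was called (adjusted p = 0.0281, range over 25 alternatives 0.0261 to 0.307), as were 2194 of all genes. Without the arrays numbered 3, Emcn was called in its place (0.87, adjusted p = 0.0130, range 0.0130 to 0.893), and Pecam1 differed by 0.36, Kdr by 0.67, Vwf by 0.0879 and Esam by -0.17. Over 25 alternatives 584 to 2287 of all genes were called between KO muscles. Whether the muscle difference itself changed with genotype is the difference of differences given above, in which no member passed.

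Put in order, the group means gave different rankings for different members. WT soleus was highest for 8 of the members and not for Flt1 and Tie1, for which KO TA was. For Pecam1, Kdr, Tek, Vwf and Emcn the order was WT soleus, KO soleus, KO TA, WT TA. Most neighbours in these orders lay within 1 SD of each other. The only step above 2 SD was that of Tek from KO soleus (mean 9.34) to KO TA (8.94), where the larger SD was 0.14. WT soleus and KO soleus differed by more than the larger SD as neighbours for Flt1 (0.53 against 0.48) and Vwf (0.41 against 0.29).

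The arrays numbered 3 moved the members in 2 directions. Relative to the mean of arrays 1 and 2 of the same group, Flt1 was higher by 0.49, 0.77, 0.93 and 1.27 in the soleus of KO and of WT and the TA of KO and of WT mice, in that order. Tie1 was higher by 0.46, 0.96, 0.28 and 1.29. Emcn was lower in all 4, with differences of -1.48, -1.13, -0.41 and -1.08, and so were Kdr, from -1.24 to -0.16, and Esam, from -0.46 to -0.12. Array 3 was thus the highest of 3 in all groups for 2 members and the lowest in all groups for 3. The same held for 15.64% and 7.2% of all genes, 22.85% together. Of the other Flt1 probe sets, the 2 brighter ones followed it, by 0.43 to 1.25 and by 0.48 to 2.20, and the dim one, at -0.48 to 0.14, did not.

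**Figure D4:**
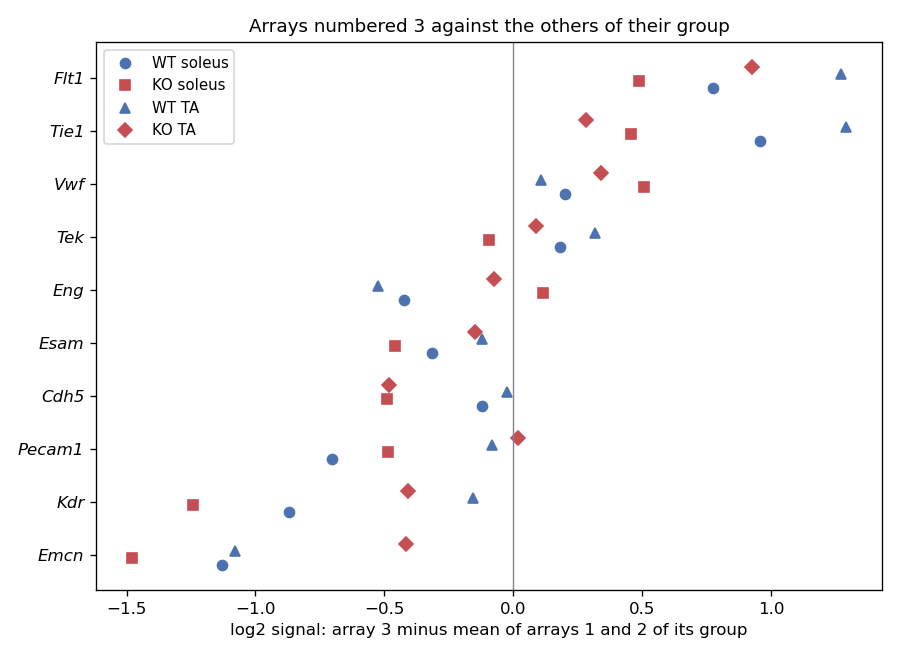
Log2 signal of array 3 minus the mean of arrays 1 and 2 of the same group (axis in log2 units) for each endothelial marker in the 4 groups. Flt1, Tie1 and Vwf are above 0 and Emcn, Kdr and Esam below 0 in every group.

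Over the 12 arrays the markers did not share a single profile. The Pearson correlation of each member with the mean of the other 9 was 0.76 for Pecam1, 0.68 for Kdr, 0.57 for Tek, 0.55 for Esam, 0.42 for Vwf, 0.39 for Cdh5, 0.28 for Emcn and 0.21 for Eng, and -0.22 for Tie1 and -0.27 for Flt1. These values describe 12 arrays that fall into 4 groups and share the split of the arrays numbered 3. By the same measure, the genes outside the list closest to the mean of the 10 members were Tomm22, a subunit of the mitochondrial import receptor (r = 0.90, Spearman 0.83), and Itm2b, a membrane protein found in most cells (r = 0.88, Spearman 0.79). They were followed by Fgfr4 (0.87), Tmem216 (0.87) and Fam171a1 (0.86), whose mean log2 signals of 2.99, 2.86 and 3.26 were close to the filter level of 2.76.

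Other endothelial genes were taken from a list of 30, of which 28 were tested. In soleus 20 of 28 were lower in KO, 0 passed the test and the median was -0.10. The largest differences were in Clec14a, a lectin of endothelial cells (-0.85, SE 0.42, adjusted p = 0.635), and S1pr1, the receptor for sphingosine 1-phosphate (-0.67, SE 0.19, adjusted p = 0.301). In TA 22 of 28 were higher on the arrays labelled KO, 0 passed, and the median was 0.16. The soleus effect was below the TA effect in 25 of 28, with 0 called and a median of -0.34 against 0.01 over all genes.

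Between WT muscles 4 of these 28 rose in soleus and 0 fell. Of all genes, 4.44% were called higher in soleus and 10.7% in either direction. Cd36, the fatty acid transporter of capillary endothelium that muscle fibres carry as well, rose by 1.59 (SE 0.17, adjusted p = 0.000513). Palmd rose by 0.88 (SE 0.15), Cd34, a surface sialomucin of vascular and some stromal cells, by 0.77 (SE 0.20), and Cyyr1 by 0.46 (SE 0.12). In KO muscle Cd36 (0.93) and Palmd (0.88) rose in soleus and Robo4, a guidance receptor of endothelium, fell by 0.63 (SE 0.17, adjusted p = 0.0427). Between KO muscles 8.96% of all genes were called. The log2 of the summed signal of the 28 genes was 15.3 to 15.8 in KO soleus and 15.4 to 15.8 in WT soleus. In TA it was 15.3 to 15.5 in KO and 15.0 to 15.2 in WT. Signals were summed unlogged, so the brightest genes weigh most.

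A list of VEGF, angiopoietin and bone morphogenetic protein ligands also held other secreted factors, among them Angptl4, Apln and Cxcl12. Not every gene in it is therefore a ligand of the member receptors. Of the 16 genes listed 14 were tested, and 0 were called between genotypes in either muscle. The median was 0.00 in soleus and 0.12 in TA. Angptl4, an angiopoietin-like inhibitor of lipoprotein lipase, differed by 0.67 (SE 0.68) and Cxcl12, a chemokine, by -0.58 (SE 0.26) in soleus. In TA, Vegfd differed by -1.14 (SE 0.70) and Apln, the apelin peptide, by 1.11 (SE 0.70), and neither was close to the threshold (adjusted p = 0.460 and 0.472). Angpt1, the activating ligand of Tek, rose in soleus relative to TA in WT (log2 1.94, SE 0.34, adjusted p = 0.00624) and in KO (2.73, SE 0.34, adjusted p = 0.00122). Cxcl12 rose with it in WT (1.41, SE 0.26), and in KO muscle Vegfd rose (2.71, SE 0.70) and Vegfb, a ligand of Flt1, fell by 1.24 (SE 0.31).

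None of 14 co-receptors and receptor partners was called between genotypes, with medians of -0.07 in soleus and -0.08 in TA. The apelin receptor Aplnr had the largest difference in both muscles (0.67, SE 0.34, in soleus and 0.94, SE 0.34, in TA). Tgfbr2, the type II receptor that signals with Eng, rose in WT soleus relative to WT TA by 1.0 (SE 0.23, adjusted p = 0.0244). Of 23 targets and regulators in endothelium, 0 were called between genotypes, with medians of -0.00 in soleus and 0.09 in TA. Egln3, an oxygen-sensing prolyl hydroxylase also made by muscle fibres, had a soleus difference of -0.68 (SE 0.20, adjusted p = 0.313). It rose in soleus relative to TA by 2.38 (SE 0.20) in WT and 2.0 (SE 0.20) in KO, and the Notch target Hes1 rose by 1.22 (SE 0.25) in WT.

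In a list of 9 muscle fibre genes of capillary growth and oxidative metabolism, 0 were called between genotypes. It shares Vegfa and Vegfb with the ligands, Hif1a with the regulators and Mb with the muscle fibre markers. In soleus 7 of 9 were lower in KO, with a median of -0.23, and in TA 4 of 9 were lower, with a median of 0.05. Ppard, a nuclear receptor of oxidative metabolism, differed by -0.55 (SE 0.21, adjusted p = 0.478) in soleus and -0.80 (SE 0.21, adjusted p = 0.0792) in TA. Between WT muscles, Esrrg, a nuclear receptor of oxidative fibres, rose by 1.78 (SE 0.25) in soleus, Mb, myoglobin, rose by 0.49 (SE 0.08), and Ppard fell by 0.93 (SE 0.21).

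Markers of the cells around and within capillaries were read beside the endothelial ones. Of 14 pericyte and smooth muscle markers, 12 were lower in KO soleus, with a median of -0.10 and 0 called. The log2 of their summed signal was 14.7 to 14.9 in KO soleus and 14.8 to 14.9 in WT soleus. In TA it was 14.6 to 14.8 in KO and 14.5 to 14.8 in WT. In TA Lmod1 fell by 0.88 (SE 0.16, adjusted p = 0.0226), at log2 signals of 2.18 to 2.80 on KO arrays and 3.06 to 3.58 on WT arrays, near the filter level. Between WT muscles the pericyte proteoglycan Cspg4 rose by 1.59 (SE 0.27) and Kcnj8, a potassium channel of pericytes, rose by 0.46 (SE 0.13) in soleus, while Lmod1 fell by 1.08 (SE 0.16).

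Markers of 6 other cell types were tested. For 6 lymphatic markers the medians of KO minus WT were 0.01 in soleus and -0.17 in TA, for 10 myeloid markers 0.10 and 0.04, and for 8 fibroblast markers 0.06 and 0.24, all with 0 called. In the same order the medians of WT soleus minus WT TA were 0.31, 0.42 and 0.33, and the matrix gene Fn1 rose by 1.84 (SE 0.39). Pf4 was the only platelet marker of 8 listed that was tested. It differed by 0.16 in soleus and -0.16 in TA between genotypes, and by 0.01 (SE 0.38) between WT muscles. Pecam1 and Vwf are also found in platelets, and the part of platelets in their rise between WT muscles was not tested. Of 3 erythroid markers, with medians of -0.05 in soleus and -0.47 in TA for KO minus WT, Slc4a1 fell by 0.63 (SE 0.11) in WT soleus relative to WT TA. Of 3 adipocyte markers, with medians of 0.57 and 0.22 for KO minus WT and 0 called, Adipoq rose between WT muscles by 4.61 (SE 1.05), with 7.97 to 10.6 on WT soleus arrays and 2.59 to 6.36 on WT TA arrays. The log2 of the summed signal of the myeloid list was 11.6 to 12.5 in KO soleus and 11.7 to 12.1 in WT soleus. In TA it was 10.7 to 12.4 in KO and 10.8 to 11.7 in WT. For the 10 endothelial members it was, in the same order, 11.75 to 12.12, 12.09 to 12.39, 11.85 to 12.01 and 11.72 to 11.91. Of 14 muscle fibre markers, 0 were called between soleus genotypes (median -0.08), and Myh2, an oxidative fast myosin, rose in KO TA by 1.64 (SE 0.25, adjusted p = 0.0110). The part of these cells in the endothelial differences was not tested.

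**Figure D5:**
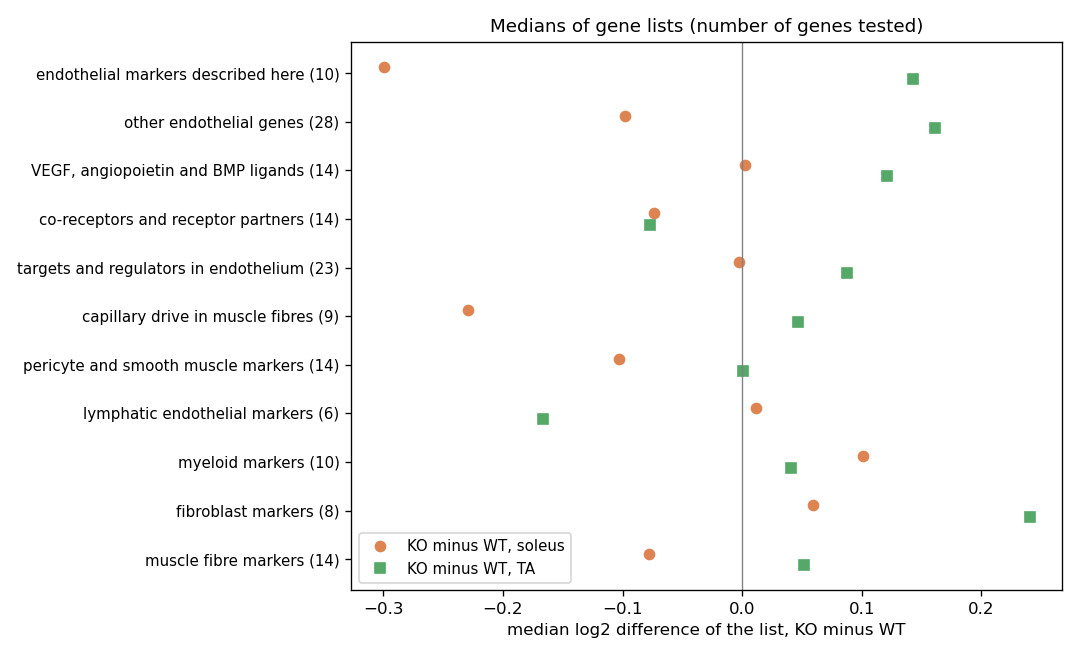
Median log2 difference of KO minus WT (horizontal axis) over each gene list in soleus (circles) and TA (squares), with the number of genes tested in brackets. The 10 endothelial markers have medians of -0.30 and 0.14 and the 28 other endothelial genes -0.10 and 0.16, beside medians of 0.00 and -0.00 over all genes.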

How the data were processed

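All 12 mouse muscle arrays were used. Per the labels, total RNA extracted with Trizol was turned into biotin-labelled cRNA. The authors deposited log2 signals for 45101 probe sets. The submitters' processing notes name MAS5 without saying how signals were summarised. Because 2% trimmed means of unlogged arrays differed by up to 1.11 times, quantile normalization was applied. A probe set was kept where at least 3 arrays had it past log2 2.76, the 40th percentile (27497 kept), and the brightest for each gene was tested (13009 genes). The fit used limma 3.58.1 in R 4.3.3, with 4 group means over 12 arrays, eBayes with a variance trend, 2-sided tests and Benjamini-Hochberg adjustment over all genes at 0.05. The procedure was tested on simulated probe sets with independent noise. That simulation lacked the split of the arrays numbered 3, so it does not cover this feature of the data.

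Groups came from sample titles. With 3 arrays a group, p-values measure only the spread between these samples, and an exact permutation test could not go below 0.1. The number of arrays limits the precision. Same-numbered arrays deviated together, from the values and not the labels, with correlations of 0.35, 0.16 and 0.56 between KO and WT TA, 0.35, 0.14 and 0.59 between WT muscles and 0.49, 0.43 and 0.59 between KO muscles, all above the limit of 0.1. KO and WT soleus did not meet it at number 2 (0.43, 0.09 and 0.61). KO soleus and WT TA, which share neither muscle nor genotype, met it as well (0.28, 0.26 and 0.47). The arrays numbered 3 stood apart in every group, so these correlations do not show that same-numbered arrays were paired.

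Members and lists were chosen with earlier results of these data known. Beyond the members, the text names up to 4 called genes of a list (smallest p first) or, with none called, up to 2 with the largest difference, and the 5 genes whose profile is closest to the members' mean. Alternatives covered normalization, filters, probe sets, pseudocount, variance model, arrays in the fit, weights, blocks and each array left out.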

Additional observations from a re-analysis of the deposited data

How the results depend on the processing

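Under 25 alternatives a comparison, or 24 for the difference of KO effects, 0 of 10 members were called between genotypes or in that difference. The number of members lower in KO soleus was 8 to 10, the number higher in KO TA 6 to 10, and the number with the lower effect in soleus 9 to 10. Between WT muscles the count of 3 became 0 when only the groups compared were fitted, 5 with the replicate block, and 0 to 4 when arrays were left out singly. Between KO muscles the count of 0 became 1 with the replicate block, 1 with muscles of equal genotype and number as a random block, and 1 without the arrays numbered 3. The replicate block changed no other call. It gave 4 called genes between soleus genotypes, where the pairing limit was not met, against 4 without it. Tek was called between WT muscles in 23, Pecam1 in 20 and Vwf in 11 of 25 alternatives.

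Counts over all genes moved more. They were 0 (only the groups compared) to 360 (array weights) for KO against WT soleus, 4 to 913 for KO against WT TA, 1 to 19 for the difference of effects, 703 to 2800 between WT muscles and 584 to 2287 between KO muscles. With median centring the share of calls higher in the first group went from 185 of 368 to 293 of 410 for KO against WT TA and from 565 of 1165 to 654 of 1071 between KO muscles. The median of the members went from 0.14 to 0.25 in TA and from 0.41 to 0.59 between WT muscles.

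Of 1240 member values under alternatives, 50 changed sign, none of a called member. In soleus KO minus WT, Tek became 0.0151 with array weights and 0.0175 without the arrays numbered 3. Leaving out single arrays gave -0.59 to 0.12 for Kdr, -0.48 to 0.0627 for Tie1 and -0.51 to 0.36 for Emcn. In TA, Cdh5 became 0.0463 in the table as deposited, 0.0916 with median centring and 0.14 without the arrays numbered 3. Eng became -0.17 with the mean of its probe sets, -0.11 with array weights and -0.15 without the arrays numbered 3. Emcn became -0.0359 with array weights and -0.0843 without the arrays numbered 3, and Vwf then -0.0022. Leaving out single arrays in TA gave -0.17 to 0.15 for Cdh5, -0.30 to 0.45 for Flt1, -0.12 to 0.58 for Tie1, -0.17 to 0.18 for Eng, -0.0374 to 0.17 for Vwf and -0.22 to 0.35 for Emcn. The difference of effects for Emcn was 0.0657 without the arrays numbered 3 and -0.65 to 0.23 with single arrays left out. Between WT muscles, Flt1 became 0.10 as deposited, 0.18 with median centring, 0.12 with the mean of probe sets, 0.14 with array weights and 0.13 without the arrays numbered 3. Tie1 became 0.14 as deposited, 0.21 with median centring, 0.0222 with array weights and 0.10 without the arrays numbered 3. Single arrays left out gave -0.0085 to 0.12 for Cdh5, -0.36 to 0.39 for Flt1, -0.33 to 0.42 for Tie1 and -0.0784 to 0.28 for Eng, and -0.0247 to 0.26 for Vwf between KO muscles. The cause was not tested.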
